A study of Mus musculus with 6 samples.

Results

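Glucocorticoid receptor signalling genes and the 2 main metallothioneins were followed in heart muscle of mice whose nuclear receptor corepressors cannot activate histone deacetylase 3. The 10 genes were selected by symbol from the deposited gene tables, which held 17891 genes with a symbol: the receptors Nr3c1 and Nr3c2, the target genes Fkbp5, Tsc22d3, Sgk1 and Zbtb16, the metallothioneins Mt1 and Mt2, and the transcription factors Cebpb and Cebpd. All 10 were listed in every sample, and all 10 passed the filter on low counts. RNA was sequenced from the myocardium of C57BL/6 mice aged 6 weeks, with 3 samples of wild type (WT) and 3 of NS-DADm genotype. In NS-DADm animals, corepressors that include NCOR, the product of Ncor1, have knock-in mutations of the deacetylase activating domain in every tissue, so that they cannot switch on the deacetylase HDAC3. The only comparison of the study is NS-DADm against WT. Whether the samples are separate mice is not stated in the labels, and the p-values therefore reflect only how much these particular samples vary.

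Glucocorticoids are adrenal steroids that enter cells and bind the glucocorticoid receptor, a transcription factor held in the cytoplasm by heat shock protein chaperones until hormone arrives. The bound receptor moves to the nucleus and induces a set of genes found in most tissues, among them feedback inhibitors of the receptor itself, and heart muscle cells also carry the mineralocorticoid receptor, which binds the same steroids. Corepressors such as NCOR bind nuclear receptors and repress their genes. Metallothioneins are small cysteine-rich proteins that bind zinc and copper, and their genes respond both to metals, through the zinc-sensing factor MTF-1, and to glucocorticoids.

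Libraries held 10183792 to 11205221 expected counts for WT and 12262523 to 12758311 for NS-DADm. The cardiomyocyte markers Myh6, Actc1, Tnnt2, Tnni3, Myl2, Ryr2, Pln and Ttn reached a summed level of 50690 to 57601 FPKM in WT samples and 49757 to 57013 FPKM in NS-DADm samples, as the tissue label calls for. FPKM is the read count scaled by gene length and library size. The libraries differed in their content of atrial transcripts: Nppa, Myl4, Myl7, Sln and Bmp10 summed to 4653 FPKM in WT 3, 3740 in NS-DADm 1 and 6542 in NS-DADm 3, but to 531.5, 268.8 and 570.9 FPKM in WT 1, WT 2 and NS-DADm 2.

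Both metallothioneins and Cebpb were higher in NS-DADm hearts, while the 2 receptors and 4 classical targets of the glucocorticoid receptor were not called. Of the 10 genes, 3 rose, 0 fell and 7 were not called by edgeR's quasi-likelihood test at a Benjamini-Hochberg adjusted p under 0.05 over all 13130 genes tested. Of all tested genes, 3.20% were called, 1.79% higher and 1.41% lower. The 10 genes were picked with earlier results of the data known, which limits comparisons with all tested genes. At an unadjusted p under 0.05, 4 of the 10 passed, none of them lower, against 18.1% of all tested genes. DESeq2 called 4 of the 10 (4.33% of all genes), limma called 2 (2.07% of all genes), and neither called any of them lower. The fold change was positive for 9 of the 10, with a median log2 fold change of 0.41, whereas 49.3% of all tested genes were positive, with a median of 0.00. The WT and NS-DADm samples did not overlap for the same 3 genes, and 23.4% of all tested genes showed such a separation.

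**Figure D1:**
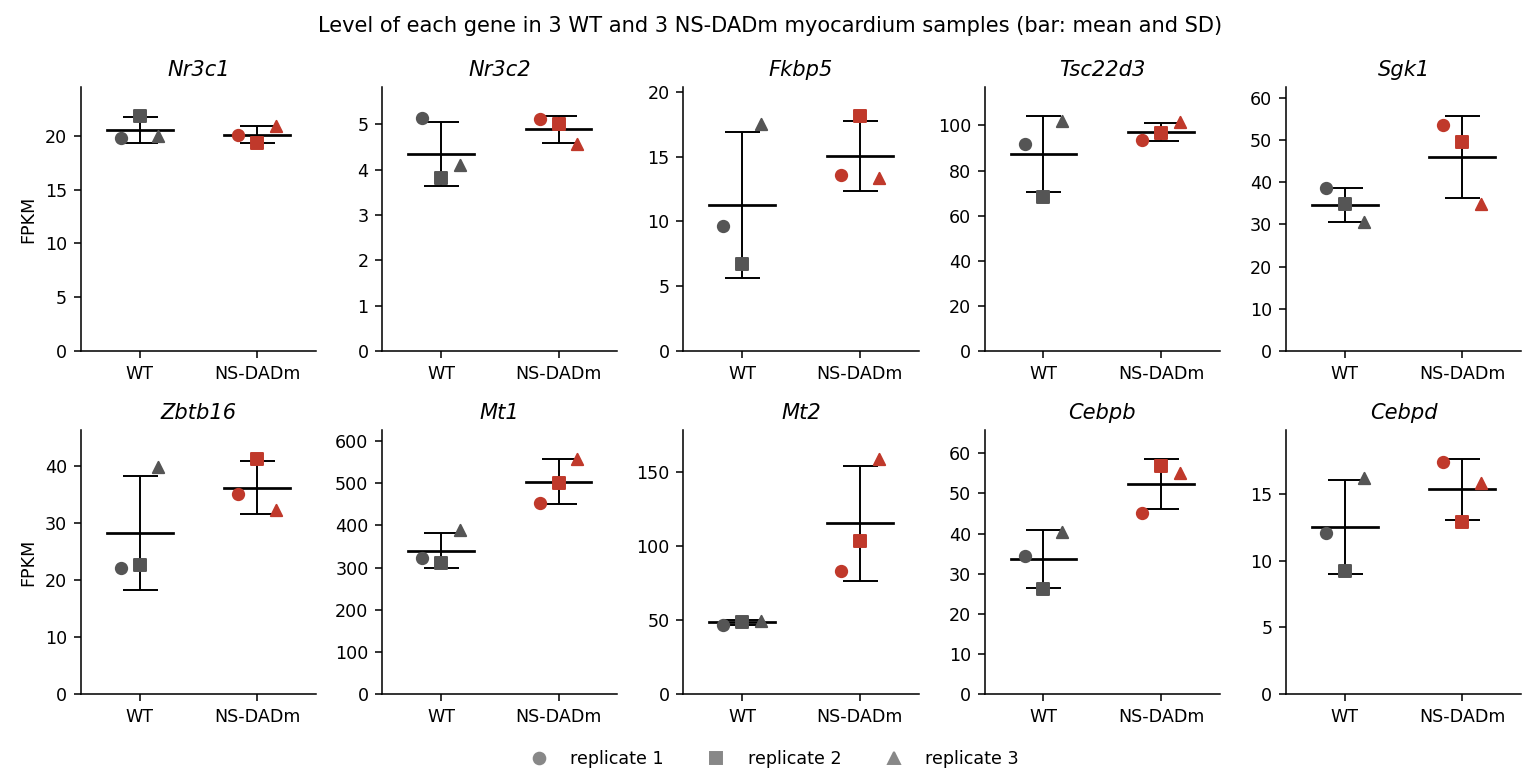
Level in FPKM of each of the 10 genes in 3 WT and 3 NS-DADm samples, with marker shapes for the replicate number and bars for the mean and SD. Mt1, Mt2 and Cebpb have no overlap between groups, and WT 3 lies at the NS-DADm level for Fkbp5, Zbtb16 and Tsc22d3.

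The genes covered a wide range of expression in WT hearts. Mt1 was the most abundant, at 340.5 ± 42 FPKM (SD, n = 3), followed by Tsc22d3 at 87.4 ± 17 and Mt2 at 48.4 ± 1.6. Sgk1, Cebpb and Zbtb16 came next, at 34.7 ± 4, 33.6 ± 7.2 and 28.2 ± 10 FPKM, and the ranges of neighbours in this trio overlapped. Nr3c1 stood at 20.5 ± 1.2 FPKM. Cebpd and Fkbp5, at 12.5 ± 3.5 and 11.3 ± 5.6 FPKM, overlapped each other. Nr3c2 was the least abundant, at 4.35 ± 0.71 FPKM, and apart from the overlaps named, each gene was separated from the next in every WT sample. In NS-DADm hearts the range of Mt2, 83.2 to 159 FPKM, spanned that of Tsc22d3, 93.6 to 101 FPKM.

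**Figure D2:**
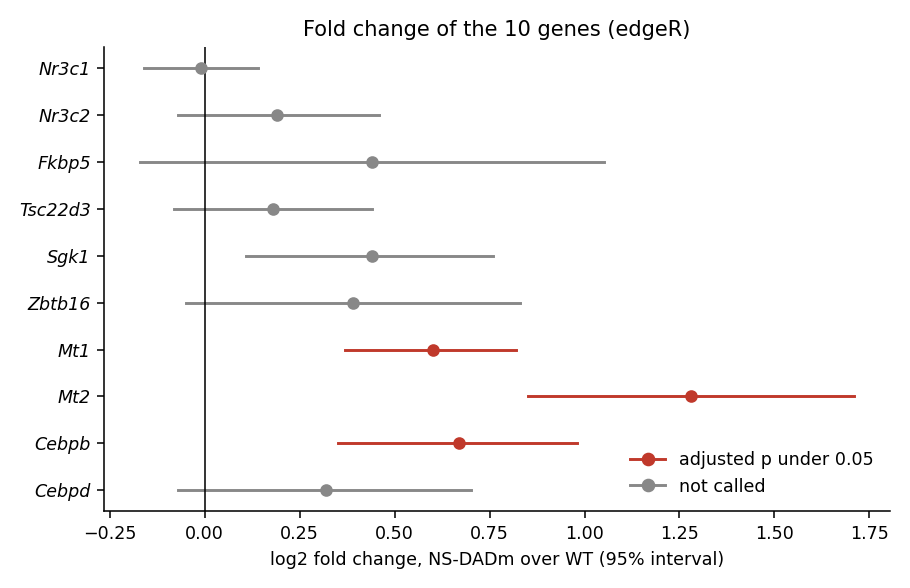
Log2 fold change, NS-DADm over WT, of the 10 genes with 95% intervals from edgeR. Only the intervals of Mt1, Mt2 and Cebpb belong to called genes, and the interval of Sgk1 lies above 0 without a call after adjustment.

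Neither receptor was called. Nr3c1 encodes the glucocorticoid receptor. Its level was 19.8, 21.9 and 19.9 FPKM in WT 1, 2 and 3 and 20.1, 19.3 and 20.9 FPKM in NS-DADm 1, 2 and 3. The 6 values interleave, and the log2 fold change was -0.01 with a 95% interval of -0.16 to 0.14 (SE 0.07, edgeR adjusted p = 0.966). Nr3c2, the mineralocorticoid receptor, stood at 5.15, 3.81 and 4.10 FPKM in WT and 5.12, 5.01 and 4.56 FPKM in NS-DADm. WT 1 was slightly above the highest NS-DADm sample, and the log2 fold change of 0.19 had an interval of -0.07 to 0.46 (edgeR adjusted p = 0.432). The ratio of Nr3c1 to Nr3c2 in FPKM was 4.81 ± 0.95 in WT and 4.12 ± 0.40 in NS-DADm (n = 3 each, exact permutation test, two-sided, p = 0.4, with 0.1 the smallest p that 3 against 3 samples allow).

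None of the 4 classical targets was called, and the groups overlapped for each. Fkbp5 encodes a co-chaperone that lowers the hormone affinity of the receptor and is among its most hormone-sensitive targets. Its level was 9.64, 6.69 and 17.5 FPKM in WT 1, 2 and 3 and 13.6, 18.2 and 13.4 FPKM in NS-DADm 1, 2 and 3. WT 3 exceeded 2 of the 3 NS-DADm samples, while WT 1 and WT 2 lay below all of them. Its log2 fold change was 0.44 with an interval of -0.17 to 1.05 (SE 0.27, edgeR adjusted p = 0.437). Without WT 3 it was 0.90 and the gene was called (edgeR adjusted p = 0.0333). Zbtb16, a zinc finger transcription factor strongly induced by glucocorticoids, shared the highest WT sample with Fkbp5, with 22.1, 22.6 and 39.8 FPKM in WT 1, 2 and 3. The NS-DADm samples 1, 2 and 3 had 35.0, 41.3 and 32.3 FPKM. Again WT 3 lay inside the NS-DADm range and the other WT samples below it. Its log2 fold change was 0.39 (-0.05 to 0.83, edgeR adjusted p = 0.338), and 0.71 without WT 3 (edgeR adjusted p = 0.0121).

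Tsc22d3 encodes GILZ, a leucine zipper protein that carries part of the anti-inflammatory action of glucocorticoids. It was expressed at 91.7, 68.5 and 102 FPKM in WT 1, 2 and 3 and at 93.6, 96.6 and 101 FPKM in NS-DADm. WT 3 was the highest of all 6 samples and WT 2 the lowest. The log2 fold change of 0.18 had an interval of -0.08 to 0.44 (edgeR adjusted p = 0.471). Fkbp5, Zbtb16 and Tsc22d3 thus shared their highest WT sample. WT 3 was the highest WT sample in 7 of the 10 genes and in 20 of 27 other glucocorticoid response genes (74.1%), against 38.9% of all tested genes.

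**Figure D3:**
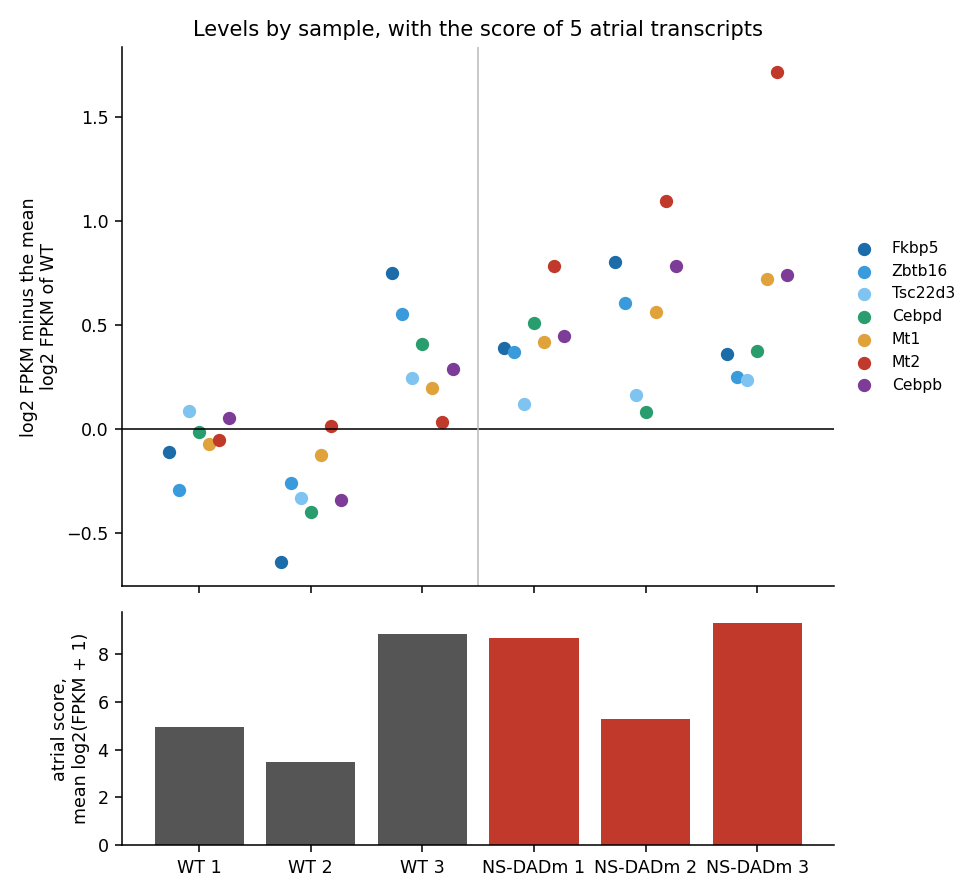
Upper panel, log2 FPKM of 7 genes in each sample minus the mean log2 FPKM of WT. Lower panel, atrial score of each library, the mean log2(FPKM + 1) of 5 atrial transcripts, which is 8.85 in WT 3 against 4.96 and 3.50 in WT 1 and WT 2.

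WT 3 was also the WT library rich in atrial transcripts. Between the libraries of high atrial content, NS-DADm 1 and 3 against WT 3, the log2 ratio of mean FPKM was -0.37 for Fkbp5, -0.24 for Zbtb16 and -0.06 for Tsc22d3. Between those of low atrial content, NS-DADm 2 against WT 1 and 2, it was 1.15, 0.88 and 0.27. The sign for these 3 genes differed between the library sets, each of which has 1 sample on one side and allows no test. Whether atrial content has a part in the levels of WT 3 was not tested. With the atrial score as a covariate, the log2 fold change was 0.34 for Fkbp5, 0.30 for Zbtb16 and 0.09 for Tsc22d3 (edgeR adjusted p = 0.514, 0.414 and 0.724). For the called genes both sets gave a positive value: 1.29 and 1.11 for Mt2, 0.38 and 0.66 for Mt1, and 0.31 and 0.91 for Cebpb, high set first.

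Sgk1, the serum and glucocorticoid regulated kinase that acts on ion channels and transporters, differed from the other targets in where the overlap lay. Its level was 38.5, 34.9 and 30.6 FPKM in WT 1, 2 and 3 and 53.5, 49.5 and 34.9 FPKM in NS-DADm 1, 2 and 3. NS-DADm 1 and 2 lay above all WT samples and NS-DADm 3 among them. Over all samples the log2 fold change was 0.44 with an interval of 0.11 to 0.76 (SE 0.15, unadjusted p = 0.0143, edgeR adjusted p = 0.151). It was called without NS-DADm 3 (0.60, edgeR adjusted p = 0.0163) and with DESeq2 on all samples (0.44, adjusted p = 0.0328).

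Promoter sequence was examined for letters of known response elements, in RefSeq windows of the 250 bases before each transcription start (GRCm38.p6). Of the 10 genes, 7 had an entry, with 14 windows in all; Nr3c1, Zbtb16 and Cebpd had none. The full palindrome of the glucocorticoid response element, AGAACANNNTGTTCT, which reads the same on both strands, occurred in 3 of 32851 windows of all genes (0.00913%). 1 of those was 1 of the 6 windows of Sgk1, and it is shown because no other window of the 10 genes holds these letters. It lies at chr10:21993640-21993889, plus strand, and capitals mark the palindrome, 189 to 175 bases before the start.
Sgk1: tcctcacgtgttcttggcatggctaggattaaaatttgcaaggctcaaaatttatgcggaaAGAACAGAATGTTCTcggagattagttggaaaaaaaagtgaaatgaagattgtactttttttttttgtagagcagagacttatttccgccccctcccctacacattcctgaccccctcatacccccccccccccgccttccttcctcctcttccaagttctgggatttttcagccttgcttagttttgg
A match is a description of the letters, and the other target genes may carry their elements outside these windows. The windows were not matched to the transcript models that carry the Sgk1 reads.

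Without each sample in turn, the fold changes of the target genes moved more than those of the metallothioneins relative to their size. The log2 fold change of Fkbp5 ran from 0.18 to 0.90, of Zbtb16 from 0.24 to 0.71, of Tsc22d3 from 0.03 to 0.30 and of Sgk1 from 0.32 to 0.60. All of these values were positive. Each of Fkbp5, Zbtb16 and Sgk1 was called in 1 of the 6 fits, and Tsc22d3 in 0 (edgeR adjusted p from 0.173 to 0.903).

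**Figure D4:**
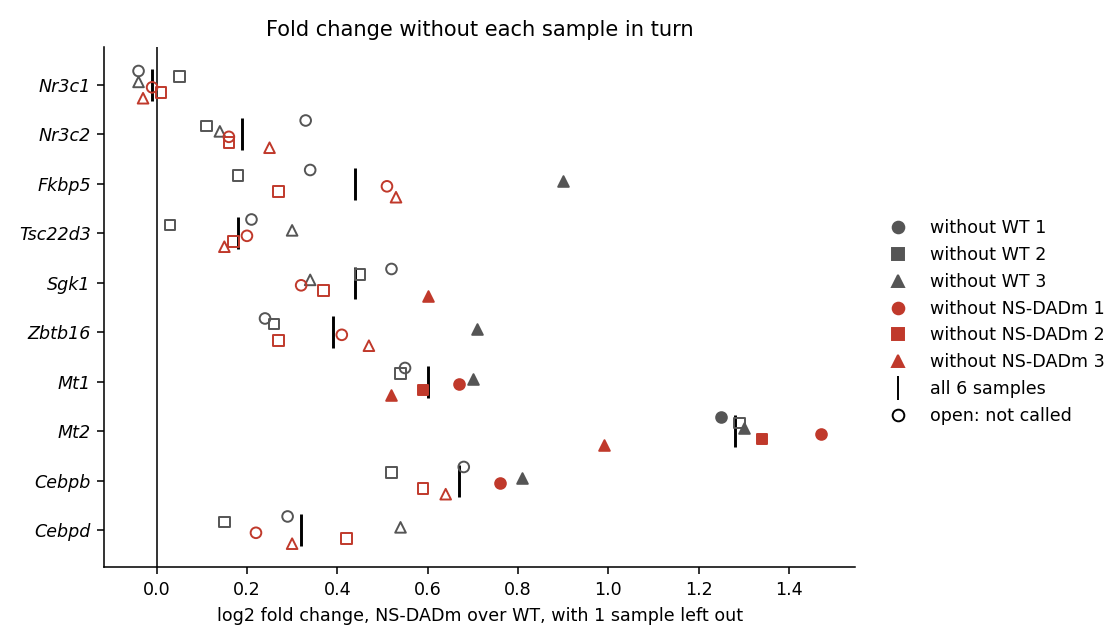
Log2 fold change, NS-DADm over WT, of the 10 genes with each of the 6 samples left out, filled where called by edgeR, with black bars for the value from all samples. Fkbp5 and Zbtb16 are called only without WT 3, and Mt2 loses its call only without WT 2.

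Both metallothioneins rose. Mt2 had the largest fold change of the 10 genes and Mt1 the highest level. Expected counts of both were whole in every sample. Mt2 was expressed at 46.6, 48.9 and 49.6 FPKM in WT 1, 2 and 3 and at 83.2, 103.4 and 159 FPKM in NS-DADm 1, 2 and 3. The WT samples lay within 3 FPKM of each other, and each NS-DADm sample was far above them, with NS-DADm 3 the highest. The log2 fold change was 1.28 (SE 0.20), a 2.43-fold rise with a 95% interval of 1.80 to 3.28 (edgeR adjusted p = 0.00845). It rested on 239 to 272 counts per WT sample and 503 to 949 per NS-DADm sample. Without NS-DADm 3 the log2 fold change was 0.99 (edgeR adjusted p = 0.00256), and without WT 2 the call was narrowly lost (1.29, edgeR adjusted p = 0.0501).

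Mt1 was expressed at 322, 311 and 389 FPKM in WT 1, 2 and 3 and at 452, 499.8 and 559 FPKM in NS-DADm 1, 2 and 3. Every NS-DADm sample lay above every WT sample, and WT 3 was the highest WT sample. Mt1 had a log2 fold change of 0.60 (SE 0.10), a 1.51-fold rise with an interval of 1.3 to 1.76 (edgeR adjusted p = 0.0134). It kept a value of 0.52 to 0.70 without each sample in turn, and was not called without WT 1 or WT 2 (edgeR adjusted p = 0.0641 and 0.0752). The ratio of Mt2 to Mt1 in FPKM was 0.145, 0.158 and 0.128 in WT and 0.184, 0.207 and 0.284 in NS-DADm. All NS-DADm ratios were above all WT ratios, 0.225 ± 0.053 against 0.143 ± 0.015 (n = 3 each), a log2 difference of 0.63. The exact permutation test, two-sided, gave p = 0.1, the smallest p that this design allows.

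Mt1 and Mt2 are neighbours, and in the RefSeq gene order Mt4, Mt3, the non-coding gene Gm39227, Mt2 and Mt1 follow each other. The windows of the 250 bases before their starts are shown because both genes rose and because metal response elements, bound by MTF-1, lie in metallothionein promoters. Capitals mark TGCACNC or TGCGCNC, searched on both strands. The RefSeq windows (GRCm38.p6) are chr8:94172368-94172617 for Mt2 and chr8:94178839-94179088 for Mt1, both on the plus strand.
Mt2: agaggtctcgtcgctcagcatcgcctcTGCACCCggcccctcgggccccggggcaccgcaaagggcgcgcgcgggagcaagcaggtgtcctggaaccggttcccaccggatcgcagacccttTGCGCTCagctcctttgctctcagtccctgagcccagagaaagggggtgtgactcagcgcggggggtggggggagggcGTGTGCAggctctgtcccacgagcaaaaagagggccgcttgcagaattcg
Mt1: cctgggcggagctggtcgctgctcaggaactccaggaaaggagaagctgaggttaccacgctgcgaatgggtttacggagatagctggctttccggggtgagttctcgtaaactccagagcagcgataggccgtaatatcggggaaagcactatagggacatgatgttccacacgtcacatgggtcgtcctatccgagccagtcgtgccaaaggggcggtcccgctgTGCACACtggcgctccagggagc
The Mt2 window holds 3 matches, TGCACCC at 223 to 217, TGCGCTC at 128 to 122 and GTGTGCA at 50 to 44 bases before the start, and the Mt1 window holds 1, TGCACAC at 23 to 17. At least 1 match occurred in 21.4% of all 32851 windows, and 3 or more in 1.26%. Nr3c2 had 1 match, and the windows of Fkbp5, Tsc22d3, Sgk1 and Cebpb had none. Bases outside the windows were not searched, and the RefSeq starts of Mt1 and Mt2 were not checked against the reads. Either gene may carry further metal response elements there, so the matches do not show which gene has more of them.

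None of the other genes of zinc handling was called. Of 19 tested zinc transporters, metallothioneins other than Mt1 and Mt2, and zinc-sensing genes, edgeR called 0, and DESeq2 and limma called 0. An unadjusted p under 0.05 was found for 2 of 19, against 18.1% of all tested genes. The median log2 fold change was -0.06, and 7 of 19 were positive, against 49.3% of all tested genes. Groups did not overlap for 4 of 19, against 23.4% of all tested genes. All 4 were lower in NS-DADm: Slc30a5, Slc39a1, Slc39a3 and Slc39a10. The summed level of the list was 207.2 to 211.2 FPKM in WT samples and 195.3 to 203.9 FPKM in NS-DADm samples, without overlap. Mtf1, the zinc-sensing factor, stood at 3.10 ± 0.21 FPKM in WT against 3.32 ± 0.14 in mutant hearts (log2 fold change 0.12, edgeR adjusted p = 0.502). Slc30a1, the zinc exporter that MTF-1 induces, stood at 5.32 ± 0.62 and 4.66 ± 0.35 FPKM (-0.17, edgeR adjusted p = 0.436). Slc30a9, the most abundant transporter gene of the list, stood at 49.5 ± 2.2 and 46.6 ± 2.5 FPKM (edgeR adjusted p = 0.69). Mt3 was scarce, at 1.41, 1.28 and 4.92 FPKM in WT samples and 4.64, 2.52 and 5.39 FPKM in mutant samples, and its groups overlapped (0.72, edgeR adjusted p = 0.495). Mt4 was listed in no sample.

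Of the C/EBP factors, Cebpb rose and Cebpd was not called. Both are leucine zipper factors of acute phase and stress responses that glucocorticoids can induce. Cebpb was expressed at 34.3, 26.1 and 40.4 FPKM in WT 1, 2 and 3 and at 45.2, 56.9 and 55.2 FPKM in NS-DADm 1, 2 and 3. The groups were separated by the gap from WT 3 to NS-DADm 1. Cebpb had a log2 fold change of 0.67 (SE 0.14), a 1.59-fold rise with an interval of 1.27 to 1.98 (edgeR adjusted p = 0.0352). This was the least stable call of the 3. It was lost on leaving out WT 1 or WT 2, and likewise NS-DADm 2 or NS-DADm 3 (edgeR adjusted p = 0.108, 0.109, 0.0968 and 0.0782) and under limma at a pseudocount of 1 (0.64, adjusted p = 0.0745).

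Cebpd was expressed at 12.1, 9.25 and 16.2 FPKM in WT 1, 2 and 3 and at 17.4, 12.9 and 15.8 FPKM in NS-DADm. WT 3 lay above 2 NS-DADm samples, and the log2 fold change was 0.32 (-0.07 to 0.70, edgeR adjusted p = 0.373). Its expected counts were not whole in 5 of 6 samples, so its level may be less certain than that of genes with whole counts. Of 4 other tested members of the family, edgeR called 0, limma 0 and DESeq2 1, against 3.20%, 2.07% and 4.33% of all tested genes. At an unadjusted p under 0.05, 2 of the 4 passed, against 18.1%. All 4 fold changes were positive, against 49.3%, with a median log2 value of 0.13. Cebpa, at 4.14 ± 1.6 and 6.74 ± 1.7 FPKM, had a log2 fold change of 0.72 (edgeR adjusted p = 0.156). Ddit3, the stress-induced member, stood at 17.9 ± 0.56 and 17.9 ± 3.5 FPKM.

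Transcript models added detail for Tsc22d3 and Sgk1. Of the 16 transcripts of the 10 genes that were tested, edgeR called 0, 5 had an unadjusted p under 0.05 and DESeq2 called 5. Over all transcripts tested, the shares were 0.0972%, 11.2% and 4.92%. The 16 include 3 models of Cebpb with equal values, so 1 measurement enters these counts 3 times. For Tsc22d3, the model of 1974 bases carried 73.0% to 85.9% of the gene's FPKM. It stood at 75.1, 50.0 and 85.8 FPKM in WT and 80.3, 81.3 and 84.0 FPKM in NS-DADm. The model of 2149 bases had the opposite sign, with 12.98, 13.1 and 13.4 FPKM in WT and 11.4, 11.7 and 11.9 FPKM in NS-DADm. Its groups did not overlap, but the log2 difference of -0.15 was not called (edgeR adjusted p = 0.45). For Sgk1, the model of 2471 bases held 81.2% to 90.7% of the gene's FPKM, and NS-DADm 3, at 28.4 FPKM, lay within its WT range of 27.8 to 32.96. The 3 models of Cebpb had the same length and equal values and cannot be told apart.

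A wider list of 28 glucocorticoid response genes, 27 of them tested, had 5 that rose, 0 that fell and 22 that were not called. Of all tested genes, 1.79% rose and 1.41% fell. An unadjusted p under 0.05 was found for 13 of 27, against 18.1% of all tested genes. Of these 13, Sult1a1, Arrdc2 and Ptgds were lower (edgeR unadjusted p = 0.0146, 0.0285 and 0.00559) and the rest higher. The list was drawn up with earlier results of the data known, which limits such comparisons. DESeq2 called 8 higher and 1 lower, against 4.33% of all genes in either direction, and limma called 2 higher, against 2.07%. The median log2 fold change was 0.26 and 23 of 27 were positive. The largest rise was in Agt, angiotensinogen, the precursor of angiotensin, with 3.07, 2.75 and 2.74 FPKM in WT 1, 2 and 3 and 7.90, 5.74 and 8.2 FPKM in NS-DADm. Every NS-DADm sample lay well above the WT samples, and the rise was 2.59-fold (2.0 to 3.34, edgeR adjusted p = 0.00236). Cdkn1a, the cell cycle inhibitor p21, stood at 15.2, 10.7 and 15.8 FPKM in WT and 33.9, 37.5 and 30.4 FPKM in NS-DADm. Its groups were as far apart, with a 2.48-fold rise (edgeR adjusted p = 0.00112). Both were called without each of the 6 samples in turn.

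The other rises in this list were smaller, with adjusted p nearer to the threshold of 0.05. Bcl6, a transcriptional repressor, rose 1.57-fold, from 7.18 ± 1 to 11.1 ± 1.9 FPKM (edgeR adjusted p = 0.0324). Dusp1, a phosphatase that switches off stress kinases, rose 1.32-fold, from 40.0 ± 5.2 to 52.0 ± 3.8 FPKM (edgeR adjusted p = 0.0459). Foxo1, a transcription factor of catabolic genes, rose 1.24-fold, from 7.24 ± 0.23 to 8.87 ± 0.38 FPKM (edgeR adjusted p = 0.0487). Leaving out 1 sample kept the call in 2 of 6 fits for Bcl6, 1 of 6 for Dusp1 and 0 of 6 for Foxo1 (edgeR adjusted p up to 0.139, 0.191 and 0.149). The log2 fold changes in these fits ran from 0.52 to 0.77, 0.34 to 0.51 and 0.29 to 0.35. With limma none of the 3 was called (adjusted p up to 0.0747, 0.0895 and 0.114). The most abundant gene of the list, Ptgds, a prostaglandin D synthase, stood at 347 ± 44 FPKM in WT against 254.1 ± 36 in mutant hearts (log2 fold change -0.42, edgeR adjusted p = 0.0956). Glul, glutamine synthetase, showed the high WT 3 of Fkbp5, at 201.3, 236.2 and 327.3 FPKM in WT and 261.9, 308.9 and 327.9 FPKM in NS-DADm (edgeR adjusted p = 0.418). The clock gene Per1, a rapid target of the receptor, stood at 26.0 ± 3.4 and 28.1 ± 1.3 FPKM (edgeR adjusted p = 0.475).

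**Figure D5:**
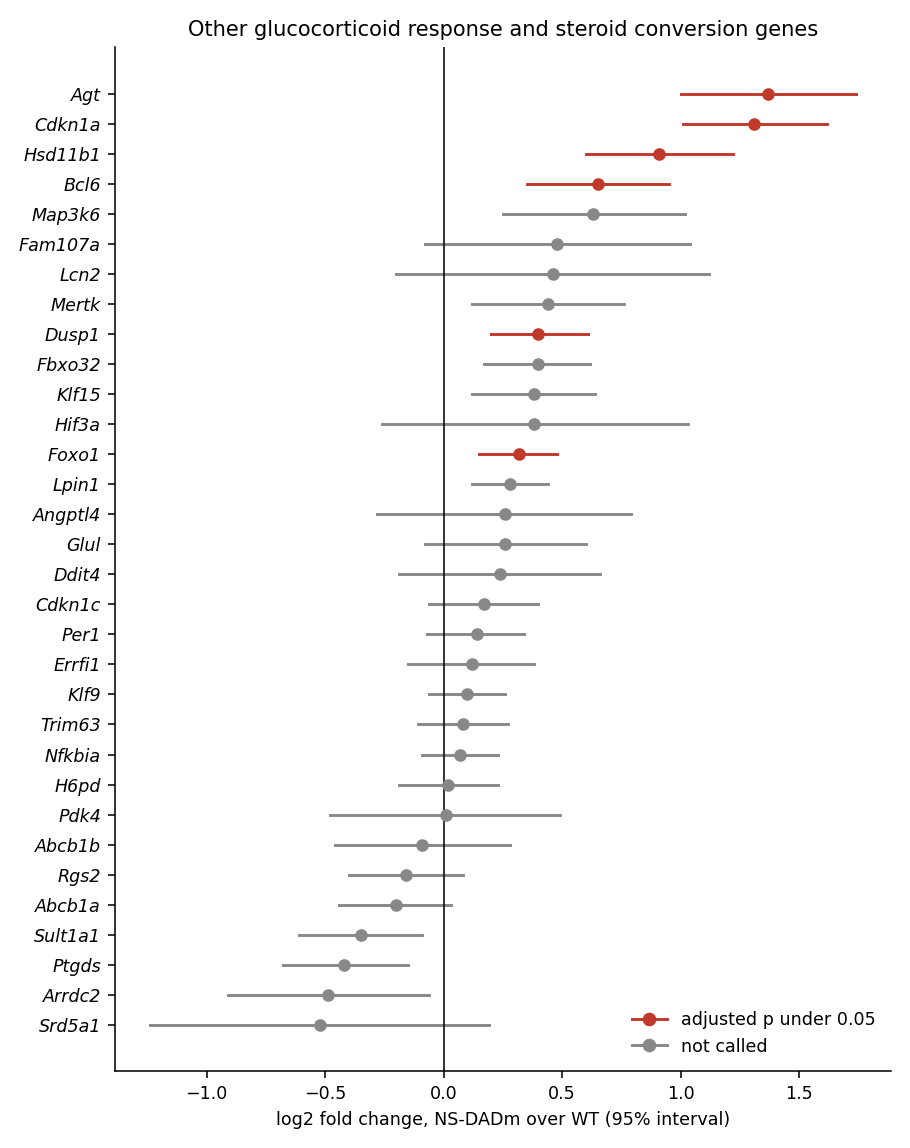
Log2 fold change, NS-DADm over WT, with 95% intervals from edgeR, of the 27 tested genes of the wider glucocorticoid response list and 5 steroid conversion and export genes. Agt, Cdkn1a, Hsd11b1, Bcl6, Dusp1 and Foxo1 are called, all above 0.

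Hsd11b1, the enzyme that regenerates active glucocorticoid from its inert form inside cells, rose. It was expressed at 6.33, 7.32 and 8.22 FPKM in WT 1, 2 and 3 and at 11.8, 13.3 and 15.6 FPKM in NS-DADm 1, 2 and 3. All NS-DADm samples were above all WT samples, and the rise was 1.88-fold with an interval of 1.51 to 2.33 (edgeR adjusted p = 0.00879). It was called in 5 of 6 fits with a sample left out, and not without WT 2 (edgeR adjusted p = 0.0501). H6pd, which supplies the cofactor of this enzyme, stood at 13.03 ± 1.1 and 13 ± 1.5 FPKM (edgeR adjusted p = 0.933). Of the 5 tested genes of steroid conversion and export, only Hsd11b1 was called, against 3.20% of all tested genes. Hsd11b2, the enzyme that inactivates the hormone, was too low to test.

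None of the chaperones that hold the receptor was called. Of 12 tested, edgeR, DESeq2 and limma each called 0, with a median log2 fold change of 0.01. None had an unadjusted p under 0.05, against 18.1% of all tested genes. Their summed level was 2540 to 2605 FPKM in WT samples and 2314 to 2511 FPKM in mutant samples, without overlap. Groups did not overlap for 4 of the 12 genes, against 23.4% of all tested genes. All 4 were lower: Hspa8, Hsp90ab1, Ptges3 and Fkbp4. Hspa8, the most abundant, stood at 1143 ± 45 and 1063 ± 63 FPKM (edgeR adjusted p = 0.598). Of 15 receptor coregulators, 1 rose, against 1.79% of all tested genes. It was Tbl1xr1, a subunit of the NCOR complex, which went from 6.80 ± 0.27 to 12.2 ± 0.76 FPKM (1.82-fold, edgeR adjusted p = 0.000164). Ncor1 RNA stood at 22.9 ± 1.2 and 24.3 ± 1 FPKM and was not called (edgeR adjusted p = 0.432). Gene levels do not show the knock-in mutations, so this value does not check the genotype labels. Ppargc1a, the most abundant coactivator of the list, stood at 26.7 ± 4 and 46.7 ± 14 FPKM and missed the call (log2 fold change 0.83, edgeR adjusted p = 0.0529).

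Genes that respond to aldosterone, the ligand from which the mineralocorticoid receptor takes its name, included no called gene. Of 9 tested, edgeR called 0, limma 0 and DESeq2 1, against 3.20%, 2.07% and 4.33% of all tested genes. At an unadjusted p under 0.05, 1 of the 9 passed, against 18.1% of all tested genes. The median log2 fold change was 0.06.

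Some genes of the inflammatory and immediate early responses rose as well. Of 9 tested genes of the interleukin-6 and STAT3 response, 2 rose and 0 fell, while 1.79% of all tested genes rose and 1.41% fell. Bcl3, a co-regulator of NF-κB, rose 2.06-fold, from 1.97 ± 0.44 to 4.0 ± 0.47 FPKM (edgeR adjusted p = 0.0236), and Stat3 rose 1.20-fold, from 33.4 ± 0.16 to 39.3 ± 0.92 FPKM (edgeR adjusted p = 0.0331). Socs3, the feedback inhibitor of STAT3, stood at 1.99 ± 0.28 and 2.30 ± 0.14 FPKM (edgeR adjusted p = 0.523). Of 16 tested immediate early genes, which are switched on within minutes of a stimulus, 6 rose and 0 fell. All 16 fold changes were positive, against 49.3% of all tested genes, with a median log2 value of 0.55. Nr4a1 rose 2.70-fold, Maff 2.14-fold, Ier5 1.53-fold and Junb 1.47-fold (edgeR adjusted p = 0.00511, 0.00603, 0.0138 and 0.0229). The part of this difference in the levels of Cebpb, Dusp1 and Mt2 was not tested.

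Markers of other cells were compared because all values come from whole tissue, in which more cells of a type and more RNA per cell cannot be told apart. All 10 macrophage markers had positive fold changes, with a median log2 value of 0.42, and 5 rose, C1qa, C1qb, C1qc, Folr2 and Csf1r. Of all tested genes, 49.3% were positive and 1.79% rose. The summed level of the macrophage markers was 300.5 to 337.8 FPKM in WT and 391.3 to 450.3 FPKM in NS-DADm, without overlap. The part of macrophages in the levels of Mt1, Mt2, Cebpb and Hsd11b1 was not tested. Neutrophil markers were near 0 in both groups, 2.24 to 4.21 and 2.18 to 3.67 FPKM summed over 5 genes, of which Ly6g was listed in no sample. Summed T cell markers reached at most 1.72 FPKM and B cell markers at most 3.08.

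Adipocyte markers, which can come from fat around the heart, summed to 8.63, 2.13 and 22.7 FPKM in WT 1, 2 and 3 and 15.4, 2.42 and 74.0 FPKM in NS-DADm 1, 2 and 3. None of the 4 tested was called by edgeR, DESeq2 or limma, against 3.20%, 4.33% and 2.07% of all tested genes. An unadjusted p under 0.05 was found for 0 of the 4, against 18.1%. NS-DADm 3, the sample with the highest Mt2 and Hsd11b1, had the highest adipocyte sum. NS-DADm 2, with an adipocyte sum of 2.42 FPKM, had 103.4 FPKM of Mt2 and 13.3 FPKM of Hsd11b1. The part of fat in these levels was not tested. Mesothelial markers were scarce and summed to 1.75 to 3.70 FPKM in WT and 3.05 to 13.8 FPKM in NS-DADm. Summed fibroblast markers, 485.6 to 577.9 against 472.5 to 576.1 FPKM, and endothelial markers, 228.2 to 247.5 against 228.6 to 241.9 FPKM, overlapped. Smooth muscle and pericyte markers summed to 272.4 to 289.8 FPKM in WT and 219.6 to 256.9 FPKM in the mutant, without overlap, most of it from the pericyte gene Rgs5 at 214.4 ± 16 and 167.4 ± 15 FPKM (log2 fold change -0.33, edgeR adjusted p = 0.0793). Of these 5 markers edgeR and limma called 0 and DESeq2 1, against 3.20%, 2.07% and 4.33% of all tested genes. At an unadjusted p under 0.05, 3 of the 5 passed, against 18.1%. Positive fold changes were found for 3, against 49.3%, among them that of Cnn1 (1.32, edgeR adjusted p = 0.2). The 4 erythroid markers summed to 2563 to 4994 FPKM in NS-DADm against 5047 to 5999 in WT, without overlap of the sums but with overlap for 3 of the 4 genes, and edgeR, DESeq2 and limma called 0 of them, while all 4 had an unadjusted p under 0.05.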

How the data were processed

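Each sample had a gene table and a transcript table, in which the authors deposited expected counts and FPKM, per the file headers. HISAT, an aligner, is named in the submitters' processing notes. No estimator, genome build or annotation is given in the sources used here. A gene not listed in a sample was taken as 0, and 1 row with no symbol (up to 0.00032% of counts) was dropped. No pair of samples was a duplicate (chi-square per gene of at least 3.5).

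Expected counts were rounded. Genes were kept by filterByExpr with its defaults, scaled by TMM and tested over the 6 samples by the quasi-likelihood method of edgeR 4.0.16 in R 4.3.3. P-values were adjusted by Benjamini-Hochberg over all tested genes, and a gene is called at an adjusted p under 0.05. Levels are mean ± SD of FPKM over 3 samples. The alternatives were DESeq2 1.42.0, limma 3.58.1 on log2(FPKM + 1) and log2(FPKM + 0.1), other scaling and filters, a replicate block, an atrial score as covariate, a looser threshold and leaving out each sample. The main edgeR gene fit was tried on simulated counts, and the alternatives were not.

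The 10 genes and the lists were chosen with earlier results of these data known. The split by atrial content and the list of clock genes were added after seeing the data. Named genes were the 10, up to 6 called genes of the wider response list, up to 4 of each other list, and the most abundant of a list. Other genes named were chosen after their values were seen. Promoter windows came from RefSeq (GRCm38.p6), cut to the 250 bases before the start. Some members of the lists are not reported here.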

Additional observations from a re-analysis of the deposited data

How the results depend on the processing

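Each gene was recomputed under 14 alternatives. The log2 fold change of Nr3c1, near 0, turned to 0.01 with the atrial covariate and ran from -0.04 to 0.05 with a sample left out. No other gene of the 10 changed sign in a fit. The number of the 10 genes called was 3, and 0 (without WT 2) to 5 (without WT 3) with a sample left out in edgeR. DESeq2 size factors and other filters gave 3. The 5 calls among the other response genes became 12 with the replicate block, 9 with DESeq2, 2 with limma at either pseudocount, 3 with the atrial covariate, 9 at a threshold of 0.1, and 2 to 7 with a sample left out. The 420 calls among all genes became 895 with the replicate block, 272 and 267 with limma at pseudocounts of 1 and 0.1, 820 at a threshold of 0.1, and 117 (without WT 2) to 382 (without WT 3). Transcripts of the 10 genes, with the 3 equal Cebpb models counted separately, went from 0 calls to 5 with DESeq2. The cause of these changes was not tested. Same-numbered samples deviated together with correlations of 0.037, 0.586 and 0.584, and WT 1 correlated better with NS-DADm 2 (0.295), so the numbers were not taken as pairs. The replicate block added Sgk1 (0.42, edgeR adjusted p = 0.00807) to the calls among the 10. Mt1 and Mt2 were called in every gene fit except without the samples named beside them. In the edgeR transcript fits they were not called (adjusted p = 0.175 and 0.16 with all samples). With 3 samples a group, the spread of Fkbp5 and Zbtb16 in WT limits what can be called for them.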

Other observations

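Clock genes, a list added after seeing the data because glucocorticoids follow a daily rhythm, differed in direction. Of 14 tested, 2 rose and 0 fell by edgeR (1.79% and 1.41% of all tested genes), with a median log2 fold change of 0.05. An unadjusted p under 0.05 was found for 6 of 14 (18.1% of all tested genes), and 7 of 14 had groups that did not overlap (23.4% of all tested genes), Arntl, Npas2, Clock, Cry2 and Nfil3 higher and Per3 and Nr1d2 lower. Arntl, which encodes the clock factor BMAL1, had the largest fold change, from 0.453 ± 0.23 to 1.26 ± 0.24 FPKM, and missed the call (2.89-fold, edgeR adjusted p = 0.0508). Nfil3, a repressor of clock output genes, rose 2.41-fold, from 5.32 ± 1.6 to 12.7 ± 1.6 FPKM, and Clock rose 1.26-fold (edgeR adjusted p = 0.00647 and 0.0405). Dbp, the most abundant and a strongly rhythmic output gene, stood at 125.3 ± 26 and 112.7 ± 11 FPKM (edgeR adjusted p = 0.678). The sources used here do not give the hour of tissue collection.

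The genes whose pattern over the 6 samples was most like that of Fkbp5, among 11145 genes searched, were Pom121, Cnnm4 and Rarg, with Pearson correlations of log2(FPKM + 1) of 0.996, 0.994 and 0.991 (Spearman 1.000, 1.000 and 0.943). Each was lowest in WT 2 and had WT 3 inside or above the NS-DADm range. For Mt2 they were Uso1, Cyb561 and Sympk, at 0.994, 0.991 and 0.986 (Spearman 0.829, 1.000 and 0.886). The 6 points of each include the difference between groups, and the likeness was picked from all genes searched.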
